A study of Mus musculus with 42 samples.

Results

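The genes described here are the murine Fc receptors for IgG: the activating receptors Fcgr1, Fcgr3 and Fcgr4, the inhibitory receptor Fcgr2b, the signaling chain Fcer1g and the neonatal receptor Fcgrt. They were chosen by name, as 6 of the 26811 genes in the count table, and all 6 passed the filter on low counts that left 16932 genes for testing. Expression was measured by poly(A) RNA-seq of 42 MC38 tumors, 1 sample each. MC38 is a colorectal cancer cell line, and 500000 cells were placed under the skin of female CC75xB6 mice aged 8 to 12 weeks, the F1 hybrid of the strains CC075/UncJ and C57BL/6J. Mice of the isotype group (n = 5) and the aPD1 group (n = 6) received isotype controls in place of blocking antibodies, whereas the aPD1+aGMCSF group (n = 9) received a GM-CSF antibody (100 µg), the aPD1+aIL2RB group (n = 11) an antibody to the IL-2 receptor beta chain (200 µg), and the aPD1+aGMCSF+aIL2RB group (n = 11) both. Blocking antibodies or their controls were repeated from engraftment until tumors measured 75 to 110 mm3. A single 200 µg dose of aPD1, or of its isotype control in the isotype group, followed, and tumors were taken 48 hours later. Every mouse, including those of the isotype group, was therefore given rat IgG, the class of ligand these receptors bind. The whole tumor was sequenced, so that fewer cells of a type and less RNA per cell cannot be told apart, and p-values measure the spread between these tumors.

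Fc receptors join antibodies to the cells that act on them. The activating receptors bind IgG outside the cell and pass the signal through the Fcer1g chain, whose cytoplasmic tail carries an immunoreceptor tyrosine-based activation motif (ITAM) that recruits the kinase Syk. FcγRIIb, the product of Fcgr2b, instead carries an inhibitory motif (ITIM) in its own tail, which recruits the lipid phosphatase SHIP (Inpp5d) and dampens the activating signal. The receptors are best known in macrophages, monocytes, neutrophils and, for FcγRIII, NK cells, while B cells carry FcγRIIb alone of the set. FcRn, the product of Fcgrt, pairs with beta-2 microglobulin and returns IgG from endosomes to the cell surface.

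The coding sequences of both motifs are shown because they are what divides the activating from the inhibitory side of the family. They are written 5′ to 3′ on the coding strand from the GENCODE M21 transcripts of the C57BL/6J reference (GRCm38), and capitals mark the codons of the signaling tyrosines. The inhibitory motif of Fcgr2b lies in the coding part of exon 8 of 8 at chr1:170961065-170961094 on the minus strand. The activating motif of Fcer1g spans an exon junction, with bases at chr1:171230067-171230075 in exon 4 and chr1:171229886-171229927 in exon 5 of 5, also on the minus strand. The allele from CC075/UncJ was not analysed here.
Fcgr2b inhibitory motif: aatacgatcaccTACtcacttctcaagcat
Fcer1g activating motif: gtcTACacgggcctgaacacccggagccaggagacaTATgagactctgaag

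Of the 6 genes, 4 lie together on chromosome 1 (GRCm38). They are Fcgr2b (ENSMUSG00000026656, chr1:170958617-170976547, minus strand), Fcgr4 (ENSMUSG00000059089, chr1:171018920-171029761, plus strand), Fcgr3 (ENSMUSG00000059498, chr1:171051174-171064935, minus strand) and Fcer1g (ENSMUSG00000058715, chr1:171229572-171234365, minus strand), which span 275.7 kb from end to end. Fcgr1 (ENSMUSG00000015947) is at chr3:96282909-96293969 on the minus strand, and Fcgrt (ENSMUSG00000003420) at chr7:45092990-45103851 on the minus strand. The extracellular parts of Fcgr2b and Fcgr3 are near copies. Their longest shared run measures 129 bases, against 13 or 14 bases between any other pair of Fcgr1, Fcgr2b, Fcgr3 and Fcgr4. The run is shown because a read that lies wholly within it matches both genes. In Fcgr2b the run covers chr1:170967980-170968081 (exon 3) and chr1:170966674-170966700 (exon 4), and in Fcgr3 chr1:171057691-171057792 (exon 3) and chr1:171054167-171054193 (exon 4), all of it coding.
Run shared by Fcgr2b and Fcgr3: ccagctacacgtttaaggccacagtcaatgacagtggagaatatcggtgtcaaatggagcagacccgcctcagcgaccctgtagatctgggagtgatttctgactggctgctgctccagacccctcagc

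The counts themselves carry a trace of shared reads. Counts of Fcgr1, Fcgr4, Fcer1g and Fcgrt were whole in every tumor, whereas the expected count of Fcgr2b was fractional in 37 of 42 tumors and that of Fcgr3 in 21. The sum of the pair was exactly whole in 6 tumors and within 0.1 of a whole number in 16. With Cplx2 added, a gene of 15 to 92.3 counts per tumor that shares no run above 13 bases with Fcgr2b, the sum was exactly whole in 39 tumors and within 0.1 in all 42. The split of reads between Fcgr2b and Fcgr3 is therefore uncertain to an extent the table does not give. For some of the pooled comparisons, fold changes are repeated below for the sum of Fcgr2b and Fcgr3. Ratios, values relative to macrophage markers and comparisons within sets of tumors are not.

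Library totals ranged from 7155486 to 24101674 counts, and the shallowest library, aPD1+aGMCSF+aIL2RB replicate 4, was the only one below 15109227. The lowest count of any of the 6 genes was 143, for Fcgr4. Tumors also fell into groups along their replicate numbers: isotype replicates 1 and 2, aPD1 replicates 1 to 3, aPD1+aGMCSF replicates 1 to 5 and replicates 1 to 6 of the other groups formed a first set of 22 tumors, and the other 20 a second set. Neither the labels nor the methods name these sets, which were taken from an earlier look at these data, so that p-values for a difference between sets are not independent of the data that showed the sets. Between them 25.1% of the genes tested differed with the group held fixed (edgeR), and 2 genes, Prlr and Krt8, did not overlap. Of the Fc receptor genes, Fcgr2b alone differed, lower in the second set by 0.35 on the log2 scale (SE 0.11, adjusted p = 0.015). Markers of other cells differed between the sets as well: in the second, 6 of 6 T cell genes (list median -0.99), 4 of 6 genes for IgG and the joining chain (-1.39) and 3 of 10 macrophage genes (-0.11) were lower, and 4 of 5 MC38 or epithelial genes were higher (4.09). Their part in the Fcgr2b difference was not tested. The comparisons within each set are given below.

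Macrophage markers were abundant in these tumors: Adgre1, Apoe, Lyz2, Csf1r, Cd68, Itgam, Mertk and C1qa, C1qb and C1qc summed to between 1954 and 6360 counts per 1000000 (CPM) of the library total, scaled by the trimmed mean of M values, in a tumor. The 6 NK cell markers summed to between 2.0 and 74.0 CPM, the 6 neutrophil markers to between 5.12 and 44.9, and the 6 B cell markers to between 1.98 and 16.8. In the isotype tumors, expression per length of the longest coding transcript was highest for Fcer1g at 134 ± 14.3 CPM per kb (mean ± SD, n = 5), followed by Fcgr3 at 68.4 ± 3.59, Fcgr4 at 33.6 ± 7.49, Fcgr2b at 28.1 ± 0.624, Fcgr1 at 25.2 ± 3.01 and Fcgrt at 11.4 ± 1.47. The isotype tumors of Fcgr4, at 23.7 to 40.6 CPM per kb, overlapped those of Fcgr2b, the next in this order, and of Fcgr1. The place of Fcgr2b rests on the transcript assumed. Over the annotated transcript of 1462 bases, in place of the longest of 3544, its level was 68.0 ± 1.51 CPM per kb, level with Fcgr3. In the aPD1 tumors Fcer1g (222 CPM per kb) and Fcgr3 (115) again led, and Fcgr4 (84.8 ± 32.5), Fcgr1 (56.6 ± 17.8) and Fcgr2b (44.2 ± 13.4) followed with overlapping spreads. Over the transcript of 1462 bases Fcgr2b was at 107 ± 32.5 in these tumors, near Fcgr3.

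The first comparison asked what aPD1 alone did to these genes. Expression of all 6 was higher on average in the aPD1 tumors, and 4 of 6 passed the test, against 8.71% of all genes tested, whereas Fcgr2b and Fcgr4 missed it. Where treatment groups are said not to overlap, this describes levels only, since the share of all genes that separate was not counted. FcγRI, encoded by Fcgr1, is the high-affinity receptor. Its levels in the 5 isotype tumors were 52.0, 69.5, 70.1, 64.1 and 70.3 CPM, and in the 6 aPD1 tumors they ran from 91.2 through a median of 141 to 210 CPM. Every aPD1 tumor exceeded every isotype tumor, and the difference was 1.17 on the log2 scale (SE 0.24, adjusted p = 0.00222, edgeR's quasi-likelihood test with Benjamini-Hochberg adjustment, as for every adjusted p of a fold change here). Fcgr4, which encodes the receptor for IgG2a and IgG2b found on myeloid cells, measured 29.8, 46.7, 34.6, 48.7 and 51.0 CPM with isotype and 61.9 to 170 (median 97.0) with aPD1. These groups did not overlap either, but the spread within the aPD1 group was wide and the log2 fold change of 1.34 (SE 0.45) missed with an adjusted p of 0.0558. DESeq2 put it at 0.0444. Leaving out 1 tumor at a time gave 0.0357 to 0.147, under 0.05 only without aPD1 replicate 2 (0.0357) or 3 (0.0433).

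Fcgr3, the low-affinity activating receptor, stood at 85.4, 92.4, 89.7, 97.8 and 95.2 CPM with isotype and at 102 to 224 (median 144) with aPD1. The difference of 0.75 on the log2 scale (SE 0.17) passed with an adjusted p of 0.0055. Fcgr2b was the steadiest gene of the family in the isotype tumors, at 98.6, 99.5, 103, 97.8 and 98.2 CPM. In the aPD1 tumors it ranged from 113 to 219 (median 138), above every isotype tumor, yet its log2 fold change of 0.66 (SE 0.23) missed the threshold with an adjusted p of 0.0705. Without aPD1 replicate 2 or 3 it passed (adjusted p = 0.0403 and 0.0463), but leaving out another tumor gave an adjusted p as high as 0.196. The summed counts of Fcgr2b and Fcgr3, which do not depend on how shared reads were split between them, rose by 0.70 (SE 0.19, adjusted p = 0.0188).

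Fcer1g, the common signaling chain, measured 77.6, 99.0, 85.2, 101 and 94.1 CPM with isotype and 104 to 210 (median 152) with aPD1. The groups did not overlap, and the difference of 0.73 (SE 0.20) passed with an adjusted p of 0.0178. This call was lost without aPD1 replicate 4 (0.62, adjusted p = 0.0733), and without isotype replicate 1 its adjusted p was 0.0502. Fcgrt was the lowest of the set, at 20.6, 24.5, 18.8, 19.5 and 17.7 CPM with isotype and 21.3 to 39.5 (median 29.0) with aPD1. Its groups overlapped, with 4 of 6 aPD1 tumors above the isotype range, and its log2 fold change of 0.57 (SE 0.13, adjusted p = 0.00635) passed. Over the 6 genes the median log2 fold change was 0.74, against -0.00 over all genes tested. Macrophage markers moved alongside, with 8 of 10 higher and a summed level of 3328 to 6360 CPM with aPD1 against 2931 to 3495 with isotype, and each gene is set against them below as a ratio. Of 4 monocyte markers 3 were higher, with a list median of 1.46 and a summed level of 104 to 190 CPM against 93.8 to 118. Of 5 neutrophil markers tested 1 was higher, with a median of 1.35 and a summed level of 17.8 to 44.9 CPM against 10.4 to 14.7. NK cell markers summed to 36.4 to 74.0 CPM against 22.2 to 28.6 and T cell markers to 57.0 to 111 against 27.4 to 48.1, without overlap and with list medians of 0.99 and 0.98. Of each list edgeR called 0 of 6 genes, with 1 of 6 and 0 of 6 at an unadjusted p under 0.05. B cell markers were higher for 1 of 6 (median 0.68), with a summed level of 3.06 to 16.8 CPM against 2.71 to 10.0. Fibroblast markers were higher for 3 of 5 genes and lower for 1 (median 0.55), with a summed level of 1200 to 2179 CPM against 1144 to 1492, and endothelial markers higher for 2 of 5 (median 0.42). The part of all these cells other than macrophages in the changes was not tested.

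**Figure D1:**
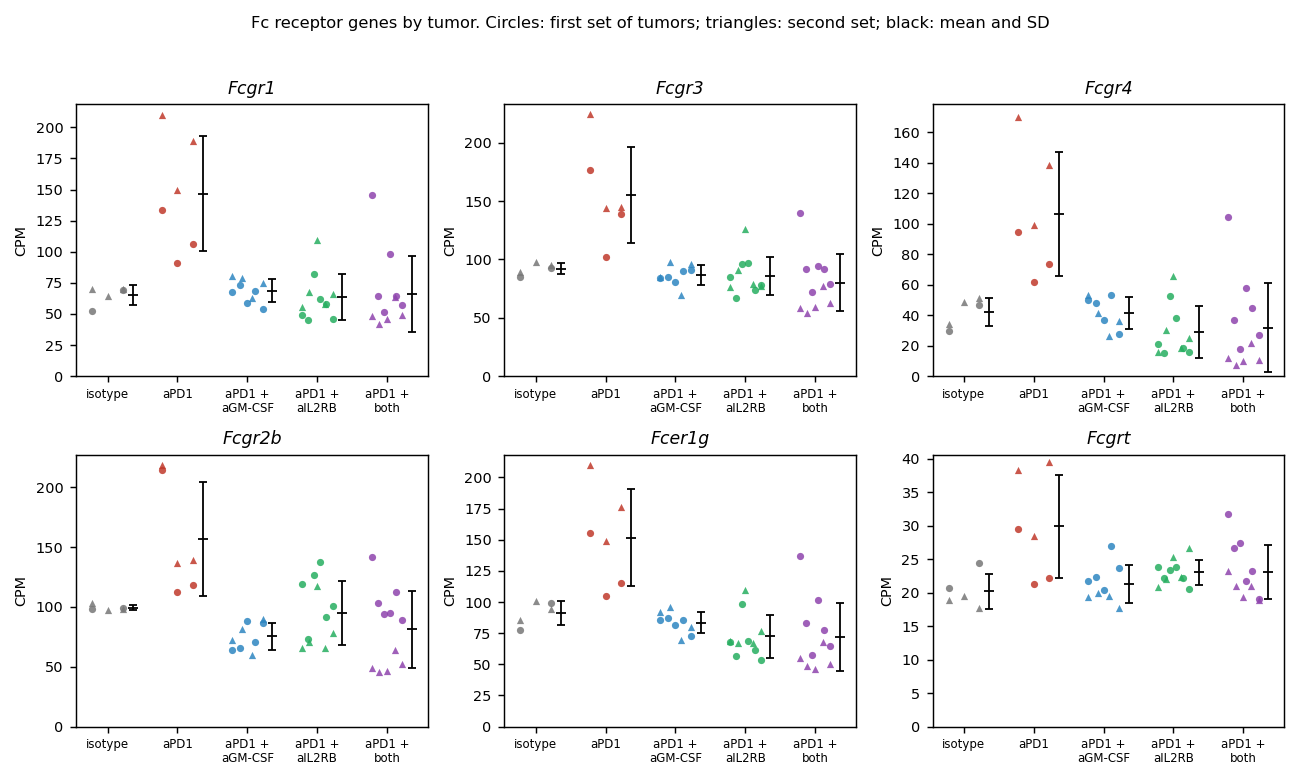
CPM of each Fc receptor gene (vertical axis, starting at 0) in each of the 42 tumors by treatment group (horizontal axis). Circles are tumors of the first set and triangles of the second, and black marks give the group mean and SD. For Fcgr1, Fcgr3, Fcgr4, Fcgr2b and Fcer1g all aPD1 tumors lie above all isotype and all aPD1+aGMCSF tumors, and aPD1+aIL2RB replicate 9 and replicate 1 of the group with both antibodies reach the aPD1 range of every gene.

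The next comparisons asked whether blocking GM-CSF, the IL-2 receptor beta chain or both altered these genes under aPD1. All 3 share the aPD1 tumors as controls. In each, expression of 6 of 6 genes was lower than with aPD1 alone and passed the test, against 13.5% of all genes tested for aPD1+aGMCSF, 27.4% for aPD1+aIL2RB and 27.4% for both. The median log2 fold change over the 6 genes was -0.96, -0.96 and -1.02, in that order, against medians of 0.01, 0.00 and 0.01 over all genes.

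Fcgr1 ranged from 53.9 to 80.7 CPM (median 68.4) with aPD1+aGMCSF, lower than with aPD1 by -1.09 (SE 0.20, adjusted p = 0.000349) and without overlap. With aPD1+aIL2RB it ranged from 44.9 to 109 (median 58.0), lower by -1.21 (SE 0.19, adjusted p = 5.66e-06), and with both from 42 to 146 (median 57.0), by -1.15 (SE 0.19, adjusted p = 1.54e-05). In these groups 10 of 11 and 9 of 11 tumors lay below the whole aPD1 range. The tumors that did not were aPD1+aIL2RB replicate 9 (109 CPM) and replicates 1 and 4 of the group with both antibodies (146 and 97.8 CPM).

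Fcgr4 showed the widest changes of the family. It ranged from 26.2 to 53.3 CPM (median 41.3) with aPD1+aGMCSF, 15.3 to 66.0 (median 21) with aPD1+aIL2RB and 7.34 to 104 (median 22.1) with both. All 9 tumors of the first group and 10 of 11 in each of the others were below every aPD1 tumor. The log2 fold changes were -1.36 (SE 0.38, adjusted p = 0.0121), -1.89 (SE 0.36, adjusted p = 9.13e-05) and -1.76 (SE 0.36, adjusted p = 0.000275), and the first was lost without aPD1 replicate 4 (-1.18, adjusted p = 0.0594).

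Fcgr3 ranged from 69.6 to 97.9 CPM (median 85.4), 67.1 to 126 (median 79.0) and 53.8 to 140 (median 77.2) in the same order. Its log2 fold changes were close to each other at -0.84 (SE 0.15, adjusted p = 0.000238), -0.85 (SE 0.14, adjusted p = 1.01e-05) and -0.96 (SE 0.14, adjusted p = 2.35e-06). The inhibitory receptor Fcgr2b ranged from 59.5 to 89.5 CPM (median 72.6) with aPD1+aGMCSF, 65.3 to 138 (median 91.5) with aPD1+aIL2RB and 45.8 to 142 (median 89.3) with both. All 9 aPD1+aGMCSF tumors were below the aPD1 range, but only 7 of 11 aPD1+aIL2RB tumors were. Its log2 fold changes were -1.05 (SE 0.20, adjusted p = 0.000465), -0.72 (SE 0.19, adjusted p = 0.00363) and -0.95 (SE 0.19, adjusted p = 0.000198), and the sum of Fcgr2b and Fcgr3 was lower by -0.94, -0.78 and -0.95, each of which passed.

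Fcer1g ranged from 69.8 to 96 CPM (median 85.4), 53.8 to 109 (median 68.1) and 46.2 to 137 (median 64.6) in the groups with aGMCSF, aIL2RB and both. The corresponding log2 fold changes were -0.86 (SE 0.17, adjusted p = 0.000721), -1.07 (SE 0.16, adjusted p = 3.49e-06) and -1.09 (SE 0.16, adjusted p = 3.57e-06). Fcgrt changed least, at 17.6 to 26.9 CPM (median 20.4), 20.6 to 26.6 (median 22.4) and 18.9 to 31.7 (median 21.7), with all 3 groups overlapping the aPD1 tumors. Its log2 fold changes of -0.49 (SE 0.11, adjusted p = 0.0028), -0.38 (SE 0.11, adjusted p = 0.00691) and -0.38 (SE 0.11, adjusted p = 0.00731) passed, but the last pair was lost without aPD1 replicate 4 (adjusted p = 0.0527 and 0.0551) or aPD1 replicate 6 (adjusted p = 0.0567 and 0.0594).

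**Figure D2:**
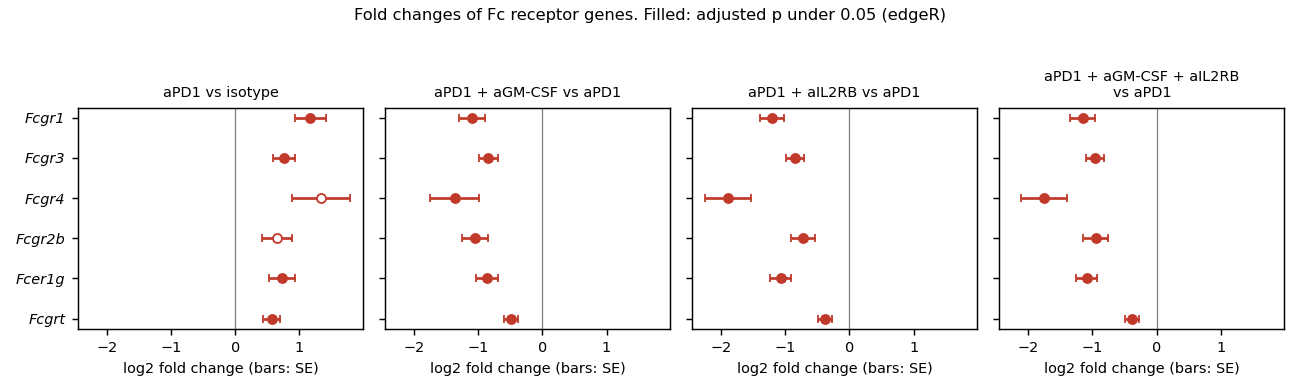
Log2 fold change of each Fc receptor gene (horizontal axis, bars are SE) in the 4 comparisons that involve the aPD1 group, from edgeR over all 42 tumors. Filled points passed an adjusted p of 0.05. All 6 genes lie above 0 for aPD1 against isotype, where Fcgr4 and Fcgr2b are open, and all 18 points of the 3 groups with blocking antibodies lie below 0.

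Macrophage markers were again lower in the same comparisons, 8 of 10 in each, with summed levels of 2538 to 3096, 2361 to 3288 and 1954 to 4279 CPM. Monocyte markers were lower for 3 of 4, 4 of 4 and 4 of 4 genes, with list medians of -1.55, -1.75 and -1.72, and neutrophil markers for 4 of 5, 1 of 5 and 3 of 5, with medians of -1.82, -0.93 and -1.32. NK cell markers were lower for 1 of 6, 6 of 6 and 6 of 6 genes and T cell markers for 1 of 6, 5 of 6 and 6 of 6. B cell markers were lower for 0 of 6, 2 of 6 and 1 of 6, with list medians of -0.67, -1.10 and -1.01. The NK receptor gene Ncr1, which also signals through Fcer1g, had 0 counts in all 11 aPD1+aIL2RB tumors, which allows up to 3 counts in a library, against 0.503 to 3.54 CPM with aPD1. No marker of the macrophage list was at 0 in any group. The part of these other cells in the Fc receptor changes was not tested beyond the ratios to macrophage markers given below.

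Against the isotype tumors, which they share as controls, edgeR called no difference in the 6 genes for any group with blocking antibodies when the sets were pooled. The calls were 0 of 6 for aPD1+aGMCSF, against 0% of all genes tested, 0 of 6 for aPD1+aIL2RB, against 3.2%, and 0 of 6 for both, against 10.2%. At an unadjusted p under 0.05 the counts were also 0 of 6, against 938, 3065 and 4520 of the 16932 genes tested. DESeq2 called 0 of 6 in each. Over all genes aPD1+aGMCSF differed from isotype in 0 genes by edgeR, in 938 at an unadjusted p under 0.05 and in 5 by DESeq2. The lowest unadjusted p was that of Fcer1g with both antibodies, at -0.35 on the log2 scale (SE 0.18, p = 0.0505, adjusted p = 0.188). By level, Fcgr2b did not overlap, since all 9 aPD1+aGMCSF tumors (59.5 to 89.5 CPM) lay below all 5 isotype tumors (97.8 to 103 CPM). The log2 fold change was -0.40 (SE 0.21) with an adjusted p of 0.889.

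Both antibodies and isotype were also compared within the sets. In the second set 4 of 6 genes were lower than with isotype, against 11.4% of genes tested: Fcgr2b by -0.95 (SE 0.20, adjusted p = 0.00143), Fcgr4 by -1.86 (SE 0.43, adjusted p = 0.00364), Fcer1g by -0.80 (SE 0.20, adjusted p = 0.00582) and Fcgr3 by -0.60 (SE 0.17, adjusted p = 0.0201). In the first set edgeR called 0 of 6, against 3.64%, and 0 at an unadjusted p under 0.05, with values from -0.03 to 0.39. The difference between the sets was called for 0 of 6, against 1.1%, and had an unadjusted p under 0.05 for 5 of 6. Here and below, the share of all genes at an unadjusted p under 0.05 was not counted within or between the sets.

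Among the groups with blocking antibodies, 0 of 6 genes differed between aPD1+aIL2RB and aPD1+aGMCSF, against 1.52% of genes tested, 0 of 6 between both and aGMCSF, against 2.13%, and 0 of 6 between both and aIL2RB, against 0.00591%. At an unadjusted p under 0.05 by edgeR the counts were again 0 of 6, against 2288, 2933 and 1212 of the 16932 genes tested. By DESeq2 they were also 0 of 6. The log2 fold changes ranged from -0.52 (Fcgr4, aPD1+aIL2RB against aPD1+aGMCSF, SE 0.33) to 0.33 (Fcgr2b, the same pair, SE 0.17).

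Within the sets some of these differences passed. Between both antibodies and aGMCSF alone, 2 of 6 genes were lower with both in the second set, against 7.3% of genes tested: Fcgr4 by -1.66 (SE 0.41, adjusted p = 0.00947) and Fcer1g by -0.66 (SE 0.18, adjusted p = 0.0227). In the first set edgeR called 0 of 6, against 0.472%, with Fcgr4 at 0.15 (SE 0.35), and 1 of 6 had an unadjusted p under 0.05, Fcgr2b at 0.50 (SE 0.17). Between both and aIL2RB alone, 1 of 6 was lower with both in the second set, Fcgr2b by -0.63 (SE 0.18, adjusted p = 0.0483), against 2.33%. The first set gave 0 of 6, against 0%, and 3 of 6 at an unadjusted p under 0.05, all higher with both: Fcgr1, Fcgr4 and Fcer1g. For aPD1+aIL2RB against aPD1+aGMCSF edgeR called 0 of 6 in each set, against 3.14% in the first and 0.177% in the second, with 1 of 6 at an unadjusted p under 0.05 in each, Fcgr2b at 0.52 in the first and Fcgrt at 0.30 in the second.

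The 4 aPD1-treated groups form a layout of 2 by 2, with each blocking antibody given alone, together or not at all. In this layout the effect of aGMCSF differed by the presence of aIL2RB for 5 of 6 genes, against 8.34% of genes tested. For Fcgr1, aGMCSF changed expression by -1.09 without aIL2RB and by 0.06 with it, a difference of 1.15 (SE 0.26, adjusted p = 0.00596). The 0.06 pools unlike values, since the change with aIL2RB was 0.49 (SE 0.19) in the first set and -0.52 (SE 0.20) in the second, and for Fcgr4 0.84 (SE 0.34) and -1.33 (SE 0.39). The differences were 0.82 for Fcgr2b (SE 0.26, adjusted p = 0.0408), 0.73 for Fcgr3 (SE 0.19, adjusted p = 0.0141), 0.85 for Fcer1g (SE 0.22, adjusted p = 0.0146) and 0.49 for Fcgrt (SE 0.15, adjusted p = 0.0298). For the sum of Fcgr2b and Fcgr3 the difference was 0.77 (SE 0.22, adjusted p = 0.0207). Fcgr4 had the largest estimate, 1.5 (SE 0.50), and missed with an adjusted p of 0.0514. It passed without any 1 of 11 tumors, with adjusted p from 0.0184 to 0.131 over all tumors left out in turn, and DESeq2 called 6 of 6. Of the 10 macrophage markers 8 showed the same sign and passed. Leaving out single tumors moved these calls: without aPD1 replicate 4 the difference was 0.59 for Fcgr3 (adjusted p = 0.0596) and 0.73 for Fcer1g (adjusted p = 0.0548), the call of Fcgr2b was lost without any 1 of 16 tumors, and that of Fcgrt without aPD1 replicate 4 or 6 or replicate 1 of the group with both. The number of genes called ranged from 1 to 6.

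Activating and inhibitory receptors were compared within each tumor as the ratio of counts to Fcgr2b, which does not depend on library size. Fcgr4 separated most from Fcgr2b. The ratio of Fcgr4 to Fcgr2b was 0.425 ± 0.0994 with isotype (mean ± SD, n = 5) and 0.687 ± 0.195 with aPD1 (n = 6), and 0.565 ± 0.182 with aPD1+aGMCSF (n = 9). With aPD1+aIL2RB it was 0.298 ± 0.124 (n = 11) and with both 0.343 ± 0.183 (n = 11), so that in the groups given aIL2RB Fcgr4 was lowered further than Fcgr2b. By two-sided exact permutation tests of the mean log2 ratio, adjusted over 30 tests, the ratio was lower with aPD1+aIL2RB than with aPD1 by -1.26 (adjusted p = 0.017) and lower with both than with aPD1 by -1.12 (adjusted p = 0.0321). It was also lower with aPD1+aIL2RB than with aPD1+aGMCSF, by -0.96 (adjusted p = 0.0207). The first of these was -1.23 in the first set and -1.24 in the second. The second was -0.44 in the first set and -1.87 in the second, and the call was lost without any 1 of 7 tumors. The third was -1.32 in the first set and -0.53 in the second. The ratios of Fcgr1 and Fcgr3 to Fcgr2b did not pass against aPD1 in the groups given aIL2RB by the same tests. With aPD1+aIL2RB they differed by -0.47 (adjusted p = 0.118) and -0.11 (adjusted p = 0.539). With both they differed by -0.19 (adjusted p = 0.43) and 0.03 (adjusted p = 0.882). Permuting within the sets called the Fcgr1 ratio with aPD1+aIL2RB, at -0.44 (adjusted p = 0.02).

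The rise with aPD1 was larger for the activating receptors Fcgr1 and Fcgr4 than for Fcgr2b in the group means, but not beyond the threshold. The log2 ratio to Fcgr2b was higher with aPD1 than with isotype by 0.51 for Fcgr1 (0.958 ± 0.253 against 0.655 ± 0.0747) and by 0.68 for Fcgr4, each with p = 0.0238 and an adjusted p of 0.0714 by the exact permutation test. Permuting within the 2 sets gave an adjusted p of 0.0407 for each. The ratio of Fcgr3 to Fcgr2b moved by 0.11 (1.01 ± 0.125 against 0.927 ± 0.0597, adjusted p = 0.359).

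With aPD1+aGMCSF no ratio differed from that with aPD1 beyond the threshold (exact permutation tests, 3 ratios): the differences were -0.03 for Fcgr1 (adjusted p = 0.918), 0.21 for Fcgr3 (adjusted p = 0.113) and -0.30 for Fcgr4 (adjusted p = 0.359), and 1 of 3, Fcgr3, had an unadjusted p under 0.05. The ratio of Fcgr3 to Fcgr2b was higher with aPD1+aGMCSF than with isotype, at 1.16 ± 0.133 against 0.927 ± 0.0597, a log2 difference of 0.32 (adjusted p = 0.0321, exact permutation test) that was lost without any 1 of 10 tumors. These are the genes whose reads were divided, and the part of that split in the ratio was not tested. In all, 4 of 30 ratios passed when the sets were pooled. Permuting within the sets kept these and called others not given above, with adjusted p from 0.02 to 0.0443. The Fcgr1 ratio was higher with aPD1+aGMCSF (0.52) and both (0.38) than with isotype. With aPD1+aIL2RB the Fcgr1 (-0.45) and Fcgr3 (-0.32) ratios were lower than with aPD1+aGMCSF. With both, the Fcgr4 ratio was lower than with aPD1+aGMCSF (-0.81). Against aPD1+aIL2RB, both gave higher Fcgr1 (0.29) and Fcgr3 (0.14) ratios. As a description, the 3 activating receptors summed per length stood at 4.53 ± 0.503 times Fcgr2b with isotype, 5.89 ± 1.10 with aPD1, 5.94 ± 1.05 with aPD1+aGMCSF, 4.29 ± 1.04 with aPD1+aIL2RB and 4.84 ± 0.852 with both, using the longest transcript of each. The shorter Fcgr2b transcript would give lower values in every group.

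**Figure D3:**
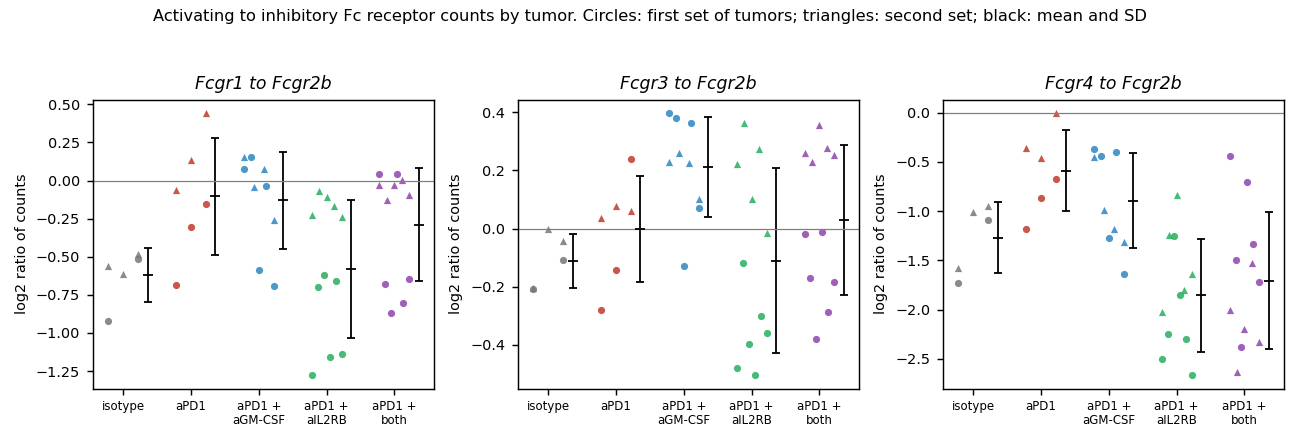
Log2 ratio of counts of Fcgr1, Fcgr3 and Fcgr4 to counts of Fcgr2b (vertical axis) in each tumor by group (horizontal axis). Circles are tumors of the first set, triangles of the second, and black marks the mean and SD. The mean Fcgr4 ratio is lowest in the groups given aIL2RB, and in the aPD1+aIL2RB group all triangles lie above all circles for Fcgr1 and Fcgr3.

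The ratios to Fcgr2b also differed by set within groups. In the aPD1 group, the reference of the comparisons above, the ratio of Fcgr1 to Fcgr2b was 0.621 to 0.901 in the first set and 0.960 to 1.36 in the second, and that of Fcgr4 0.441 to 0.626 and 0.729 to 0.998. In the aPD1+aIL2RB group the ratio of Fcgr1 to Fcgr2b was 0.412 to 0.651 among 6 first-set tumors and 0.848 to 0.953 among 5 second-set tumors. The ratio of Fcgr3 to Fcgr2b was 0.705 to 0.920 in the first set and 0.990 to 1.29 in the second. With both blocking antibodies it was 0.768 to 0.993 and 1.17 to 1.28. In these 5 of the 15 combinations of ratio and group the sets did not overlap, and no test of this was run. In the isotype and aPD1+aGMCSF groups the sets overlapped for all 3 ratios.

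Expression relative to the 10 macrophage markers was then compared, as log2 CPM of each gene minus the mean log2 CPM of the markers, with 60 exact permutation tests (100000 draws where both groups held 11 tumors). Fcgr1 and Fcgr4 rose beyond the markers with aPD1, whereas no difference was called for the other 4 genes in the pooled test. Relative to the markers, Fcgr1 was higher with aPD1 than with isotype by 0.57 and Fcgr4 by 0.74 (adjusted p = 0.0136 for each by the exact permutation test). For both genes every aPD1 tumor exceeded every isotype tumor. The differences for Fcgr2b, Fcgr3, Fcer1g and Fcgrt were 0.06, 0.17, 0.15 and -0.01, with adjusted p from 0.121 to 0.92. Permuting within the sets called Fcer1g as well (0.17, adjusted p = 0.018).

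Fcgr1, Fcgr4 and Fcer1g were lower, relative to the markers, in all 3 groups with blocking antibodies than with aPD1. For Fcgr1 the differences were -0.45, -0.50 and -0.48 with aGMCSF, aIL2RB and both (adjusted p = 0.00899, 0.0288 and 0.016 by the permutation test), and the call with aIL2RB was lost without aPD1 replicate 4, 5 or 6. For Fcgr4 they were -0.73, -1.29 and -1.41 (adjusted p = 0.00899, 0.0118 and 0.0145). For Fcer1g they were -0.24, -0.37 and -0.41 (adjusted p = 0.0113, 0.0248 and 0.0113). Fcgr3 passed in 1 of these comparisons, with both antibodies, at -0.26 (adjusted p = 0.0136).

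The inhibitory receptor was lower, relative to the markers, in the aPD1+aGMCSF group than with aPD1 or isotype. Relative to the markers, Fcgr2b was lower with aPD1+aGMCSF than with aPD1 by -0.43 (adjusted p = 0.0223, exact permutation test) and lower than with isotype by -0.37 (adjusted p = 0.0345), the latter lost without any 1 of 4 tumors. With both antibodies neither difference passed, at -0.29 from aPD1 (adjusted p = 0.119) and -0.23 from isotype (adjusted p = 0.215). Permuting within the sets called the first of these, at -0.31 (adjusted p = 0.0224), and also called Fcgr2b lower with both than with aPD1+aIL2RB, at -0.26 (adjusted p = 0.0213, against 0.124 when pooled). With aPD1+aIL2RB the difference from aPD1 was -0.03 (adjusted p = 0.908), and the direct comparison of aPD1+aIL2RB with aPD1+aGMCSF gave a difference of 0.40 (adjusted p = 0.0288), which was lost without aPD1+aGMCSF replicate 1 or 2 and was 0.31 (adjusted p = 0.0991) against Csf1r alone. Fcgrt went the other way from the activating receptors. It was higher relative to the markers with aPD1+aIL2RB than with aPD1 by 0.35 (adjusted p = 0.00899) and than with isotype by 0.34 (adjusted p = 0.00899), where the 11 and 5 tumors did not overlap. With both antibodies the differences were 0.35 (adjusted p = 0.0236) and 0.34 (adjusted p = 0.0288), and aPD1+aIL2RB also exceeded aPD1+aGMCSF by 0.22 (adjusted p = 0.016). The call for both antibodies against isotype was lost without isotype replicate 3, 4 or 5, and all 5 of these calls for Fcgrt were lost when Csf1r alone stood for the macrophages, with differences of 0.07 to 0.17. Endothelial markers moved as well, higher for 1 of 5 genes with aPD1+aIL2RB and 2 of 5 with both than with aPD1, and for 2 of 5 and 3 of 5 than with isotype. Their summed level was 119 to 164 CPM with isotype, 133 to 195 with aPD1, 146 to 210 with aPD1+aIL2RB and 165 to 214 with both. Of 5 fibroblast markers, 2 were higher and 3 lower with aPD1+aIL2RB than with aPD1, 2 higher and 1 lower with both, and 1 and 2 were higher than with isotype. The part of these cells in the Fcgrt values was not tested.

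Several of these values relative to the markers differed between the sets, in size or in sign. With both antibodies against aPD1, Fcgr4 was at -0.58 in the first set and -2.35 in the second, Fcgr1 at -0.24 and -0.72, and Fcer1g at -0.27 and -0.57. With aPD1+aGMCSF against aPD1, Fcgr4 was at -0.47 and -0.99 and Fcgr2b at -0.56 and -0.28. Fcgr2b with aPD1+aIL2RB against aPD1+aGMCSF was at 0.61 and 0.14. Fcgrt against isotype was at 0.16 and 0.49 with aPD1+aIL2RB and at 0.11 and 0.56 with both, and with aPD1+aIL2RB against aPD1+aGMCSF at 0.08 and 0.38. Other differences lay closer, such as Fcgr4 with aPD1+aIL2RB against aPD1, at -1.17 and -1.37, Fcgrt with both against aPD1, at 0.34 and 0.40, and the rise with aPD1 over isotype, at 0.53 and 0.66 for Fcgr1 and 0.69 and 0.84 for Fcgr4. Of all 60 differences, 18 had opposite signs in the sets, among them none of the 20 that passed in the pooled test. They include Fcgr2b with both against isotype, at 0.05 in the first set and -0.55 in the second, and Fcgr4 in the same comparison, at 0.11 and -1.51. For aPD1 against isotype Fcgr2b was at 0.19 and -0.06 and Fcgrt at -0.23 and 0.16. Permuting within the sets called 4 differences that the pooled test did not, the 3 given above and Fcgr1 with aPD1+aGMCSF against isotype, at 0.17 (adjusted p = 0.04), and lost none.

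**Figure D4:**
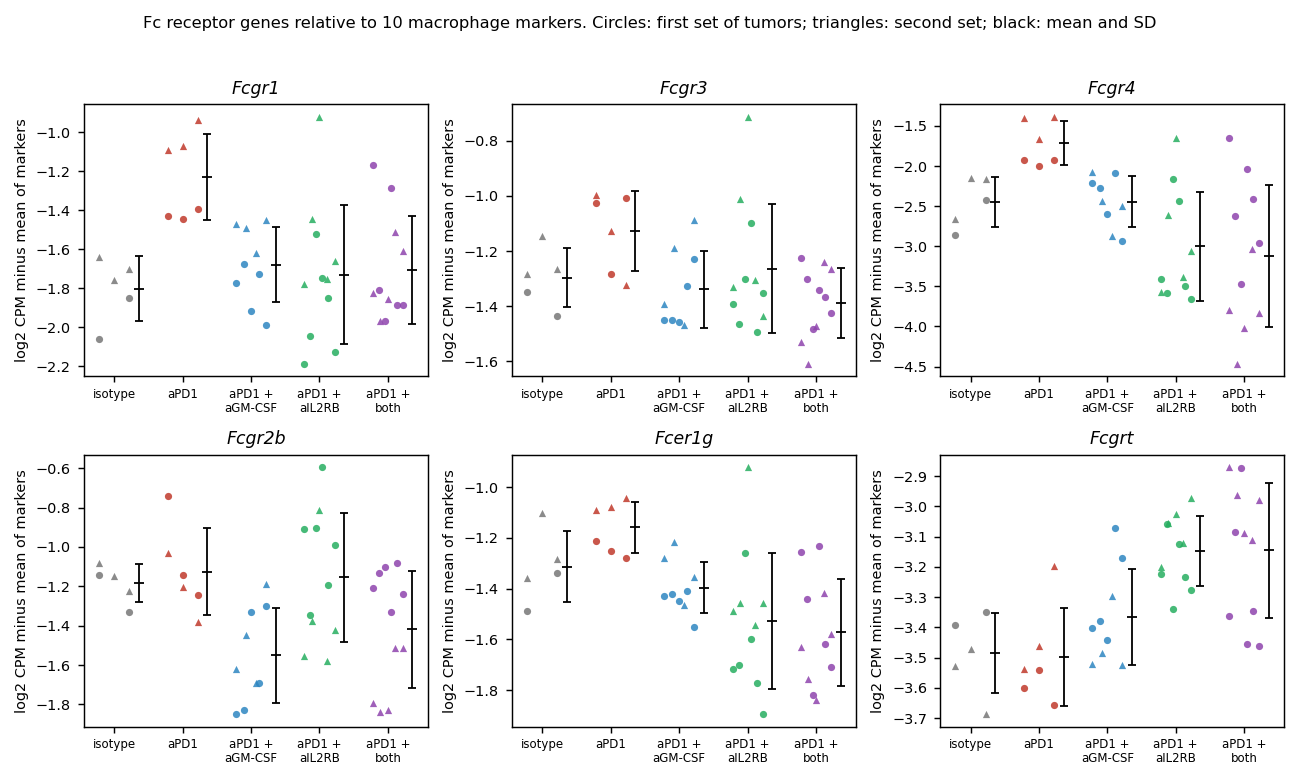
Log2 CPM of each Fc receptor gene minus the mean log2 CPM of 10 macrophage markers (vertical axis) in each tumor by group (horizontal axis). Circles are tumors of the first set, triangles of the second, and black marks the mean and SD. By group mean, Fcgr1 and Fcgr4 are highest with aPD1, Fcgr2b is lowest with aPD1+aGMCSF, and Fcgrt is highest in the groups given aIL2RB. Single tumors differ: the highest Fcgr1 value is that of aPD1+aIL2RB replicate 9, at -0.922.

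Within the sets, the comparisons with aPD1 gave more calls in the second. For aPD1 against isotype edgeR called 0 of 6 genes in the first set, against 0.0591% of genes tested, and 6 of 6 in the second, against 13%. In the first set 3 of 6 (Fcgr1, Fcgr2b and Fcgr3) had an unadjusted p under 0.05, and the log2 fold changes ran from 0.11 (Fcgrt) to 1.01 (Fcgr4), against 0.73 (Fcgr2b) to 1.60 (Fcgr4) in the second. For aPD1+aGMCSF against aPD1, 2 of 6 passed in the first set (Fcgr2b at -0.98 and Fcgr3 at -0.69), against 0.585%, and 6 of 6 in the second, against 17.1%. For aPD1+aIL2RB, 4 of 6 passed in the first set (not Fcgr2b or Fcgrt), against 18.3%, and 6 of 6 in the second, against 23.3%.

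The difference between aPD1 and the group with both blocking antibodies was larger in the second set. In a model with a mean for each group and set, 6 of 6 genes were lower in the second set, against 30.5% of genes tested, but 1 of 6, Fcgr3, passed in the first, against 7.8%. The difference between sets passed for 6 of 6 genes, against 9.18%. For Fcgr4 the change was -0.68 (SE 0.40) in the first set and -3.46 (SE 0.43) in the second. The 5 second-set tumors with both antibodies measured 7.34 to 22.1 CPM and the 6 of the first set 18 to 104, whereas with aPD1 alone the second set was higher, at 99.5 to 170 against 61.9 to 94.6. Fcgr2b with both antibodies ranged from 45.8 to 63.8 CPM in the second set and from 89.3 to 142 in the first, without overlap. Its levels with aPD1 alone overlapped between the sets, at 136 to 219 and 113 to 215 CPM.

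Between both antibodies and aGMCSF alone the sets differed for 1 of 6 genes, Fcgr2b, against 0.821% of genes tested. Between both and aIL2RB alone they differed for 3 of 6, Fcgr1, Fcgr4 and Fcer1g, against 1.94%. In the other comparisons with aPD1 edgeR called no difference between the sets in the 6 genes: 0 of 6 for aPD1 against isotype (0.0709% of genes tested), 0 of 6 for aPD1+aGMCSF (0.00591%) and 0 of 6 for aPD1+aIL2RB (0.1%). At an unadjusted p under 0.05 the counts were 1 (Fcgrt), 1 (Fcgrt) and 2 (Fcgrt and Fcgr2b). With aPD1 against isotype its change was 0.11 (SE 0.15) in the first set and 0.93 (SE 0.14) in the second, and with aPD1+aGMCSF against aPD1 it was -0.08 (SE 0.12) and -0.90 (SE 0.13). DESeq2 was not run on this model. What separates the sets is not given in the labels.

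**Figure D5:**
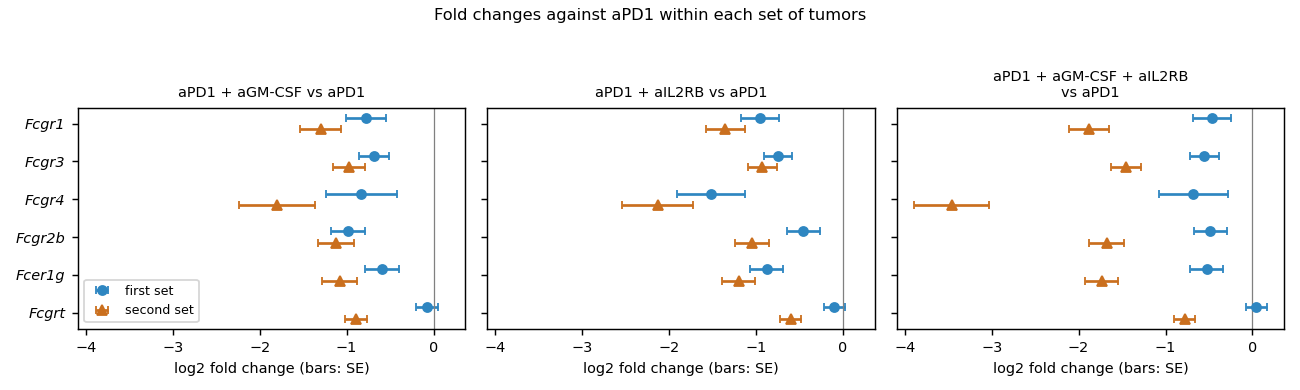
Log2 fold change against aPD1 (horizontal axis, bars are SE) of each Fc receptor gene within the first set (circles) and the second set (triangles) of tumors, for the 3 groups with blocking antibodies. The sets lie farthest apart with both antibodies, where Fcgr4 is at -0.68 and -3.46, and Fcgrt is close to 0 in the first set of every panel.

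Downstream genes were read from lists of the activating and inhibitory pathways. Of 17 genes that carry the ITAM signal, 14 were higher with aPD1 than with isotype, and 15, 15 and 15 were lower than with aPD1 in the groups with aGMCSF, aIL2RB and both, with list medians of 0.64, -0.66, -0.94 and -0.93. Syk, the kinase that docks on the phosphorylated ITAM, averaged 44.2 ± 1.73 CPM with isotype and 90.3 ± 27.8 with aPD1, a rise of 1.03 on the log2 scale (SE 0.22, adjusted p = 0.00333). It was lower than with aPD1 by -1.03, -1.22 and -1.07 in the groups with blocking antibodies (adjusted p = 0.000308, 1.79e-06 and 1.62e-05). The Src-family kinase Lyn, which phosphorylates both motifs, rose by 0.62 with aPD1 (adjusted p = 0.00468). The kinase Prkcd had the smallest adjusted p of the list in every one of the 4 comparisons, at 0.37, -0.47, -0.56 and -0.59. Src itself, which is expressed in most cells, did not pass in any of them (-0.09, 0.02, -0.05 and -0.12).

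Of 10 genes on the inhibitory side, 3 were higher with aPD1 and 5, 7 and 7 were lower in the groups with blocking antibodies, with list medians of 0.34, -0.33, -0.44 and -0.42. Inpp5d, the SHIP phosphatase recruited by the ITIM, averaged 79.6 ± 8.71 CPM with isotype and 123 ± 26.3 with aPD1, a rise of 0.63 (SE 0.13, adjusted p = 0.0027). It was lower than with aPD1 by -0.50, -0.71 and -0.61 (adjusted p = 0.0024, 3.31e-06 and 4.09e-05). Ptpn6, the tyrosine phosphatase SHP-1, rose by 0.82 (adjusted p = 0.00914) and was lower by -0.78, -1.21 and -1.19. The related phosphatases Inppl1 and Ptpn11, found in most cell types, passed in none of the 4 comparisons, with log2 fold changes between -0.04 and 0.07. The difference between the lists was not tested.

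Among 7 ITAM adaptors, which include Fcer1g itself, 3 were higher with aPD1 (Fcer1g, Tyrobp and Cd79b), and 3, 6 and 6 were lower with aGMCSF, aIL2RB and both. Tyrobp, the ITAM adaptor of many myeloid receptors, changed by 0.68 (adjusted p = 0.013), -0.75 (adjusted p = 0.000874), -0.92 (adjusted p = 5.08e-06) and -0.94 (adjusted p = 4.95e-06), close to the values of Fcer1g. Of 7 other receptors that signal through Fcer1g, 5 were tested, of which 3 were higher with aPD1 and 4, 5 and 5 were lower in the other groups. They include Clec4n (Dectin-2), at 0.73, -1.27, -0.82 and -1.28, and Clec4e (Mincle), at 1.46, -1.57, -1.30 and -1.39, both of which bind fungal or mycobacterial ligands. Ncr1 stands in this list and among the NK cell markers, and the adaptor list shares Cd3e, Cd79a and Cd79b with the T and B cell lists.

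Of 13 receptors for other antibody classes and Fc receptor-like genes, 6 had enough counts to be tested, with list medians of 0.38 for aPD1 against isotype and -0.87, -1.31 and -1.21 for the groups with aGMCSF, aIL2RB and both against aPD1. None was called with aPD1 against isotype by edgeR, with Trim21, the cytosolic antibody receptor, at 0.31 (adjusted p = 0.119) the 1 gene with an unadjusted p under 0.05, and 1 gene was lower with aGMCSF. With aIL2RB, 5 were lower and 1 higher, and with both 3 were lower and 1 higher. The gene that rose was Fcrls, an Fc receptor-like gene of resident macrophages. It averaged 20.5 ± 8.08 CPM with isotype, 18.7 ± 6.87 with aPD1 and 30.9 ± 4.57 with aPD1+aGMCSF, against 58.5 ± 23.1 with aPD1+aIL2RB and 58.9 ± 37.6 with both. Its log2 fold changes against aPD1 were 1.66 (adjusted p = 0.000442) and 1.67 (adjusted p = 0.000453), the opposite direction to all 6 IgG receptor genes.

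The transcripts of the ligand were scarce. The 4 IgG heavy chain genes with Igkc and Jchain summed to between 0.26 and 24.3 CPM in a tumor, and while edgeR called 0 of 6 with aPD1 against isotype, also 0 at an unadjusted p under 0.05, 3 of 6, 6 of 6 and 4 of 6 were lower than with aPD1 in the groups with aGMCSF, aIL2RB and both. Igkc, the kappa light chain, averaged 3.58 ± 3.33 CPM with isotype and 5.93 ± 2.28 with aPD1, and was lower with aIL2RB by -3.16 (adjusted p = 4.65e-05) and with both by -2.17 (adjusted p = 0.00257). B2m, the light chain that FcRn shares with MHC class I, changed by 0.13 with aPD1 (adjusted p = 0.582) and -0.22 with aGMCSF (adjusted p = 0.178), and was lower by -0.41 with aIL2RB (adjusted p = 0.00243) and -0.47 with both (adjusted p = 0.000616).

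Interferon gamma is known to induce Fcgr1 and Fcgr4 in myeloid cells, whereas IL-4 is known to favor Fcgr2b. Of 12 genes induced by interferon gamma, 5 were higher with aPD1 than with isotype, and 7, 10 and 12 were lower than with aPD1 in the groups with aGMCSF, aIL2RB and both. Irf8, a factor of monocytes and macrophages as well, changed by 0.84 (adjusted p = 0.0109), -0.72 (adjusted p = 0.0056), -0.91 (adjusted p = 7.53e-05) and -1.03 (adjusted p = 1.73e-05). Of 7 genes induced by IL-4, 2 were higher with aPD1 (Mrc1 at 0.52 and Il4ra at 0.65) and 5, 4 and 4 were lower in the groups with blocking antibodies. Whether either cytokine acted on the receptors was not tested.

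The stretches before the starts of Fcgr1 and Fcgr4 are shown because these genes changed beyond the macrophage markers in all 4 comparisons with the aPD1 group. RefSeq promoters (GRCm38) matched all 6 genes, and the 250 bases before each start were searched on both strands. Capitals mark matches to TTCNNNGAA, the core of a gamma-activated site, to GAAA repeated after any 2 bases, the core of an interferon-stimulated response element, and to GAGGAA, read as its complement on the other strand, the core bound by the myeloid factor PU.1. The motifs do not overlap in these stretches. TTCNNNGAA was found in Fcgr1 alone of the 6 genes and in 8.13% of 27025 promoters, the interferon-stimulated motif in Fcgr4 alone and in 3.46%, and GAGGAA in Fcgr1, Fcgr3 and Fcgr4 and in 25.9%. In Fcgr1 the matches lie at -109 to -101 and -55 to -50 from the start, and in Fcgr4 at -73 to -64 and -22 to -17. A match is a run of letters, not a site shown to be bound. The Fcgr1 stretch is chr3:96293970-96294089, minus strand, and the Fcgr4 stretch chr1:171018800-171018919, plus strand.
Fcgr1: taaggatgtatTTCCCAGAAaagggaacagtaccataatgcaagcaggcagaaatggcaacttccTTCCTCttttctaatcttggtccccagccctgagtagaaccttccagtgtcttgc
Fcgr4: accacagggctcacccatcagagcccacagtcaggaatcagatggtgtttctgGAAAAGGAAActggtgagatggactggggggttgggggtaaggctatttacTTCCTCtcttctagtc

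Across the 42 tumors the family did not vary as a single block. Pearson's r of log2 CPM, given as a description over tumors that share group, set and library effects, was 0.96 between Fcgr4 and Fcer1g, 0.95 between Fcgr1 and Fcer1g and 0.94 between Fcgr3 and Fcer1g. Fcgr2b was less close to the other genes, at 0.71 with Fcgr1, 0.77 with Fcgr4 and 0.77 with Fcer1g, and at 0.87 with Fcgr3, with which its reads were divided. After the group means were removed, r was 0.58 between Fcgr2b and Fcgr1 and 0.94 between Fcgr1 and Fcer1g. Fcgrt was farthest from the rest, at 0.55 to 0.67.

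The genes most alike in pattern were named by the highest r over 42 tumors among 12442 genes. Fcer1g was most like C1qb (0.98), Cyba (0.98) and C1qc (0.97), Fcgr3 like Samhd1 (0.96), Tyrobp (0.95) and Gm49339 (0.95), and Fcgr1 like Samhd1 (0.96), Ucp2 (0.96) and Ctsc (0.95). Fcgr4 was most like Fgl2 (0.98) and Tgm2 (0.98). The genes nearest to Fcgr2b were Clec4n (0.90), Pla2g7 (0.89) and Csf2rb2 (0.89), the last a beta subunit of cytokine receptors. For Fcgrt the values were lower, with Itm2b (0.82) and Ifit2 (0.82) among the nearest. After the group means were removed, r of these pairs ranged from 0.71 (Fcgrt with Ifit2) to 0.97 (Fcgr4 with Fgl2).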

How the data were processed

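The authors aligned 100 bp paired-end reads with Bowtie 1.2.3 to transcriptomes of the Collaborative Cross founders (GENCODE vM23, GRCm38/mm10) and deposited expected counts per gene, summed over haplotypes by gbrs, with no normalization. Strand use in counting is not given in the sources used here. Expected counts were rounded and tested with edgeR 4.0.16 in R 4.3.3: filterByExpr (minimum count 10, minimum total 15), trimmed mean of M values, quasi-likelihood test, 1 model over 42 tumors, Benjamini-Hochberg adjustment over 16932 genes within each comparison, threshold 0.05. DESeq2 1.42.0 was an alternative, and the procedure was tested on simulated data. Symbols, coordinates and lengths came from GENCODE M21. Ratios used a pseudocount of 0.5 counts, and log2 CPM a prior count of 2. Library totals of 7155486 to 24101674 gave at least 143 counts for each of the 6 Fc receptor genes. Within each list, the genes named are up to 3 with the smallest p in each comparison, plus those whose role the text describes, chosen after their values were seen. A few genes that this rule names are not reported here. The Fc receptor genes and the lists were chosen with earlier results of these data known. The model with a mean for each group and set was added after seeing the data. Groups come from the sample titles. No sample was left out.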

Additional observations from a re-analysis of the deposited data

Results flagged for a closer look

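Several Fc receptor genes were marked because the effect of 1 antibody differed with another or between the 2 sets of tumors. The effect of aGMCSF differed with and without aIL2RB by 1.15 for Fcgr1, 0.82 for Fcgr2b, 0.73 for Fcgr3, 0.85 for Fcer1g and 0.49 for Fcgrt on the log2 scale. The change from aPD1 to both blocking antibodies differed between the second and the first set by -1.41 for Fcgr1, -1.19 for Fcgr2b, -0.90 for Fcgr3, -2.78 for Fcgr4, -1.21 for Fcer1g and -0.83 for Fcgrt. The change from aPD1+aGMCSF to both differed by -1.06 for Fcgr2b. The change from aPD1+aIL2RB to both differed by -1.01 for Fcgr1, -0.89 for Fcer1g and -2.17 for Fcgr4. All passed an adjusted p of 0.05 in edgeR. Of 45 groups of tumors examined for a sample far from the others, 0 had one.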

How the results depend on the processing

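Replicate numbers did not pair the tumors. Deviations of same-numbered tumors of different groups correlated with a median r of 0.0355 (67 pairs, -0.388 to 0.389), against -0.00748 for 623 other pairs. With a replicate block the interaction was called for 2 of 6 Fc receptor genes, and the log2 ratio of Fcgr3 to Fcgr2b with both antibodies against aPD1 turned to -0.173. By a sign-flip test of pairs, the count of ratios called fell to 0 for aPD1+aIL2RB against aPD1, both against aPD1, aPD1+aGMCSF against isotype and aPD1+aIL2RB against aPD1+aGMCSF, where the smallest p possible was 0.03125 (6 pairs), 0.03125 (6 pairs), 0.0625 (5 pairs) and 0.00391 (9 pairs), in that order.

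Permuting within the sets called 2 ratios for aPD1 against isotype, aPD1+aIL2RB against aPD1, aPD1+aGMCSF against isotype and both against aPD1+aIL2RB, 1 for both against isotype and both against aPD1+aGMCSF (also 1 by an exact Wilcoxon test) and 3 for aPD1+aIL2RB against aPD1+aGMCSF. Relative to macrophage markers it called 2 genes for aPD1+aGMCSF against isotype and 1 for both against aPD1+aIL2RB, and with Csf1r alone the count was 2 for aPD1+aGMCSF against isotype and 0 for aPD1+aIL2RB against aPD1+aGMCSF. Within the first set Fcgrt turned to 0.046 for both against aPD1. The cause was not tested.

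Leaving out 1 tumor at a time, genes called ranged from 3 to 6 for aPD1 against isotype, 0 to 1 for both against isotype and 1 to 6 for the interaction. Ratios called ranged from 0 to 2 for aPD1 and for aPD1+aGMCSF against isotype, 0 to 1 for aPD1+aGMCSF and for both against aPD1 and for both against aPD1+aGMCSF, and 1 to 2 for aPD1+aIL2RB against aPD1+aGMCSF. Genes called relative to the markers ranged from 0 to 1 (aPD1+aGMCSF), 1 to 2 (aPD1+aIL2RB) and 0 to 2 (both) against isotype, and from 1 to 4 (aPD1+aIL2RB) and 0 to 3 (both) against aPD1+aGMCSF. Uncalled values that changed sign ranged from -0.142 to 0.0847 (ratio of Fcgr1 to Fcgr2b, aPD1+aGMCSF against aPD1), -0.0247 to 0.0793 (Fcgr3 to Fcgr2b, both against aPD1), -0.0173 to 0.111 (Fcgr2b relative to markers, aPD1 against isotype), -0.0838 to 0.0484 (the same, aPD1+aIL2RB against aPD1) and -0.0742 to 0.0200 (Fcgrt relative to markers, aPD1 against isotype). Under the other alternatives (DESeq2, other scalings, filters and pseudocounts, a set term, only the groups compared) directions held. Of gene values under all alternatives other than leaving out 1 tumor, 237 kept direction and side of the threshold, 21 lost it, 11 gained it and 1 changed sign.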
